A study of Mus musculus with 16 samples.

Results

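The 307 highest-scoring PPARγ binding sites of 3T3-L1 adipocytes were examined, chosen as the peaks with a score of 100 or more among the 30588 PPARγ peaks called by chromatin immunoprecipitation and sequencing (ChIP-seq). They made up 1.00% of the peaks. 3T3-L1 is an established mouse fibroblast line that becomes fat cells in culture. Day 7 adipocytes had received 1 µM rosiglitazone in 0.1% DMSO for 1 h, or 0.1% DMSO, the solvent, for 1 h. PPARγ, MED1, CBP and C/EBPα were each mapped in both treatments. The peaks are windows of 186 bp on mouse genome build mm9, and the values are normalised tag numbers in each window, where a tag is a mapped sequencing read.

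PPARγ is a nuclear receptor that binds DNA as a partner of RXR and is needed for fat cells to form and to keep their gene programme. Rosiglitazone is an antidiabetic drug that sits in its ligand pocket, and ligand favours the binding of coactivators. MED1 is the subunit through which the Mediator complex contacts nuclear receptors, and CBP is a coactivator that acetylates histones. C/EBPα is a transcription factor of fat cells that shares many binding sites with PPARγ. DNA sequences and neighbouring genes of the peaks were not analysed here, so the peaks are given by position.

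With 1 value per factor, peak and treatment, the comparisons below lack replicates, and no p-value for the treatments could be had. Ratios of rosiglitazone to DMSO are given with exact 95% intervals (Clopper-Pearson) from the tags behind them. They cover counting error only, and variation from culture to culture could not be measured. If the values are scaled to 10 M (mega) tags, PPARγ was measured with 12.03 M tags in rosiglitazone and 11.37 M in DMSO. MED1 then had 1.31 M tags in rosiglitazone and 2.86 M in DMSO, CBP 1.65 M and 4.52 M, and C/EBPα 7.85 M and 4.53 M. A single tag was therefore worth 7.65 normalised MED1 tags in rosiglitazone and 3.49 in DMSO, and single peaks of MED1 and CBP were measured coarsely. Of the 307 peaks, 12 lay in regions of high background on chromosomes 10 and 2, regions of 1 Mb where peaks held by PPARγ or C/EBPα alone carried raised tags of the absent factor.

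The peaks were chosen by their score, a value the authors gave each peak, which follows the PPARγ tags of both treatments pooled. It ran from 100 to 875.6 with a median of 131.6, against a median of 11.5 over all PPARγ peaks. The score divided by the pooled, scaled PPARγ tags had a median of 1.00 in the 307 peaks, with a range of 0.923 to 1.04. The peaks held 229 to 2070 PPARγ tags over both libraries, with a median of 307, against a median of 27 over all PPARγ peaks. The PPARγ levels below are therefore a description of the choice, and the PPARγ ratios rest on the same tags that chose the peaks. MED1, CBP and C/EBPα did not enter the score.

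The edge of the set held 4 peaks at a score of 100. Their PPARγ values were between 97.27 and 126.37 normalised tags in rosiglitazone and between 71.23 and 105.52 in DMSO. The nearest peaks below it were 3 with a score of 99.6, with PPARγ values of 115.56 to 135.51 in rosiglitazone and 61.55 to 87.05 in DMSO. The score edge thus fell within overlapping PPARγ values.

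Across the 307 peaks, PPARγ ranged from 79.81 to 1040.87 normalised tags in rosiglitazone, with a median of 179.58, and from 18.47 to 719.3 in DMSO, with a median of 92.33. Over all PPARγ peaks the medians were 14.13 in rosiglitazone and 10.55 in DMSO. PPARγ tags summed over the 307 peaks were 1.95 times as high in rosiglitazone as in DMSO (95% interval 1.92 to 1.97), against 1.53 over all PPARγ peaks. PPARγ was at least 2-fold higher in 159 of the 307 peaks (51.8%), where all PPARγ peaks gave 30.0%. It was at least 2-fold lower in 0 of the 307, where all PPARγ peaks gave 4.43%. Among PPARγ peaks with at least 20 PPARγ tags, which all 307 held, the shares were 30.3% and 4.03%. The pooled score favours peaks that are high in either treatment, so nothing is read from these shares.

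Of the 307 peaks, 262 were among the 307 highest in rosiglitazone alone and 204 were among the 307 highest in DMSO alone. In both treatments 161 were. These counts follow in part from the pooled score, in which the higher rosiglitazone values weigh more, and nothing is read from them. The 307 peaks held 9.73% of the PPARγ tags of all PPARγ peaks in rosiglitazone and 7.62% in DMSO.

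**Figure D1:**
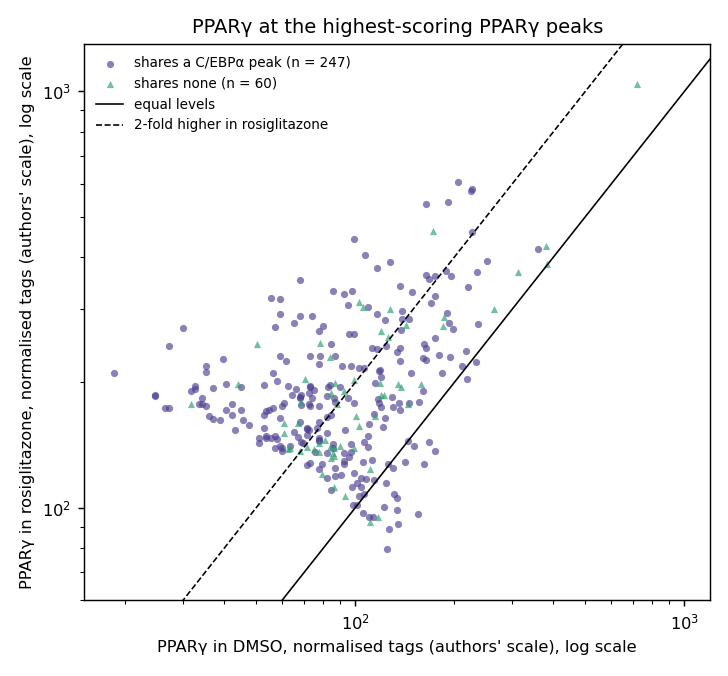
PPARγ in rosiglitazone (vertical axis) against PPARγ in DMSO (horizontal axis), both in normalised tags on log axes, at each of the 307 high-scoring peaks, marked by whether a C/EBPα peak overlaps. The solid line marks equal levels and the dashed line a 2-fold higher level in rosiglitazone, above which about 51.8% of the peaks lie.

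The highest peak by score, chr17:39984988-39985174, held 1040.87 PPARγ tags in rosiglitazone and 719.3 in DMSO, a ratio of 1.45 (95% interval 1.32 to 1.58). Its score of 875.6 was followed by one of 412.4. MED1 at this site was 872.37 in rosiglitazone and 737.38 in DMSO, and C/EBPα was 351.53 and 651.38. It did not overlap a C/EBPα peak, the nearest of which was centred 290 bp away, and the nearest other PPARγ peak lay 678953 bp away. All 4 factors were thus high in DMSO, and C/EBPα was the factor that was lower in rosiglitazone, with a ratio of 0.540 (0.456 to 0.638). Input chromatin was not used, so whether the tags of all 4 factors here reflect binding was not tested.

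The second highest peak, chr2:167527747-167527933, held 604.4 PPARγ tags in rosiglitazone and 205.77 in DMSO, a ratio of 2.94 (2.53 to 3.42). Its MED1 value was 1277.94 in rosiglitazone and 255.11 in DMSO, a ratio of 5.01 (3.78 to 6.69). CBP was 139.47 and 121.56, a ratio of 1.15 (0.673 to 1.90). The coactivators therefore differed at this site, MED1 being several times higher in rosiglitazone while the CBP interval spanned equality.

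A similar pattern of high PPARγ and MED1 in rosiglitazone was seen at chr5:64717766-64717952 and chr7:26177004-26177190, ranked 3 and 4. The chromosome 5 peak held 576.14 PPARγ tags in rosiglitazone and 224.23 in DMSO, with MED1 at 841.76 and 318.02. Here CBP was also higher, 266.82 in rosiglitazone and 108.3 in DMSO, a ratio of 2.46 (1.60 to 3.78). At the chromosome 7 peak MED1 was 1186.11 in rosiglitazone and 475.28 in DMSO, and CBP was 151.6 and 128.19. MED1 at chr15:99546404-99546590 was 1002.45 in rosiglitazone and 244.63 in DMSO, beside PPARγ values of 535.4 and 163.56, the highest PPARγ ratio among the 15 highest-scoring peaks at 3.27 (2.78 to 3.88).

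The same was seen at 3 further peaks of the top 15. MED1 was 1331.5 in rosiglitazone and 482.27 in DMSO at chr10:117486472-117486658, which lies in high background, with PPARγ at 542.05 and 191.7. At chr11:60022941-60023127 MED1 was 933.58 in rosiglitazone and 345.98 in DMSO, and at chr7:35926552-35926738 it was 1216.72 and 401.89. The chromosome 11 site shared no C/EBPα peak, and its C/EBPα was 8.92 in rosiglitazone and 15.46 in DMSO, so high MED1 was also found with little C/EBPα. At chr19:61275546-61275732 both differences were smaller, with a PPARγ ratio of 1.56 (1.34 to 1.81) and a MED1 ratio of 1.55 (1.12 to 2.14), and C/EBPα was lower in rosiglitazone, 92.98 against 242.89 in DMSO.

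Other peaks near the top differed little in PPARγ. At chrX:166435931-166436117 PPARγ was 424.83 in rosiglitazone and 379.88 in DMSO, a ratio of 1.12 (0.982 to 1.27). MED1 at the same site was 428.53 in rosiglitazone and 111.83 in DMSO, and CBP was 618.54 and 289.54, the highest CBP level among the 307 peaks. Its neighbour chrX:166429106-166429292, 6825 bp away, had a PPARγ ratio of 1.19 (1.03 to 1.37) and a MED1 ratio of 5.84 (3.71 to 9.46). At this pair of sites MED1 was therefore several times higher in rosiglitazone with PPARγ nearly level between treatments.

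The converse was seen at chr2:35134069-35134255, where PPARγ was 458.92 in rosiglitazone and 225.99 in DMSO, a ratio of 2.03 (1.75 to 2.36). MED1 there was 76.52 in rosiglitazone and 125.81 in DMSO, a ratio of 0.608 with an interval of 0.269 to 1.25. At chr3:96359173-96359359 PPARγ was 418.18 in rosiglitazone and 358.77 in DMSO, and MED1 was 68.87 and 115.33. In rosiglitazone, MED1 at these 2 sites was thus below the median of the 307 peaks, 183.66, while in DMSO it was above their median of 73.39. Both values rest on few MED1 tags (10 in rosiglitazone and 36 in DMSO at the chromosome 2 site, and 9 and 33 at the chromosome 3 site).

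Among the 15 highest-scoring peaks, the interval of the PPARγ ratio lay above 1 in 13 and below 1 in 0, where all PPARγ peaks gave 28.1% and 3.83%. For MED1 it lay above 1 in 10 and below 1 in 0, where all PPARγ peaks gave 10.2% and 1.64%. For CBP it lay above 1 in 5 and below 1 in 0, where all PPARγ peaks gave 6.40% and 0.503%. For C/EBPα it lay above 1 in 1 and below 1 in 3, where all PPARγ peaks gave 3.46% and 3.76%. High peaks hold more tags, which narrows the intervals, so these counts are not set against the background. A C/EBPα peak overlapped 10 of the 15, and 2 of them lay in high background on chromosome 10.

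**Figure D2:**
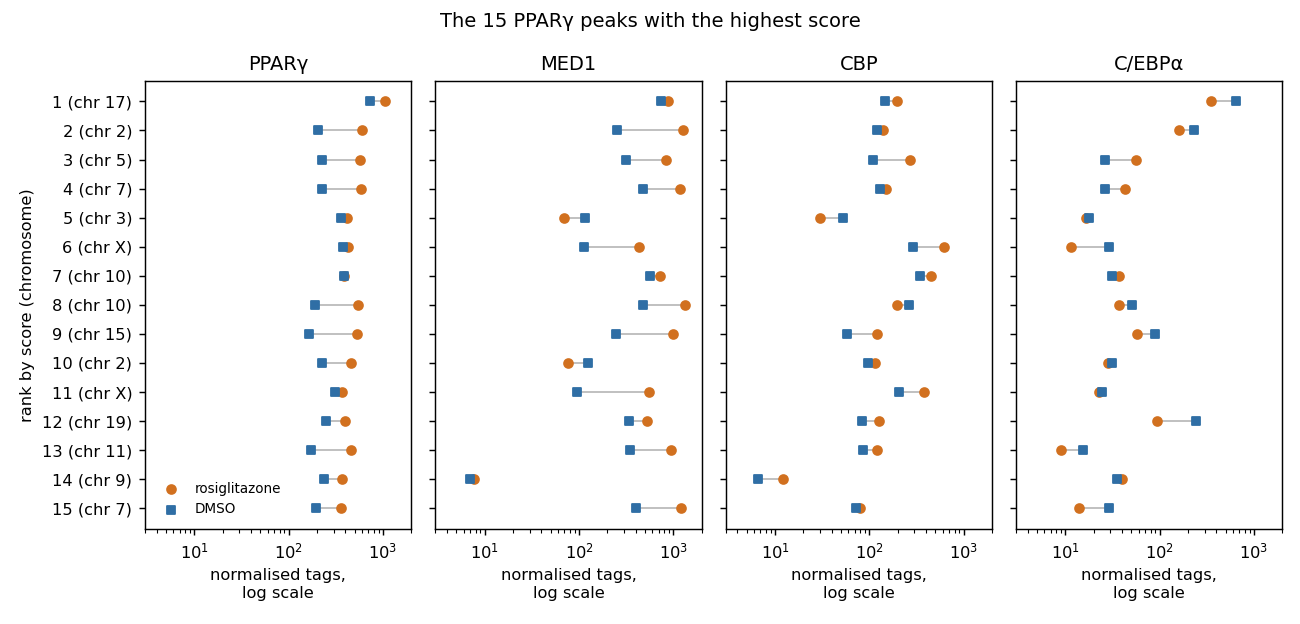
Normalised tags of each factor at the 15 highest-scoring PPARγ peaks, in order of score from the top, with rosiglitazone and DMSO as points in separate colours. PPARγ is higher in rosiglitazone than in DMSO at every one of the 15, by 1.01 to 3.27 times, while MED1 runs from 0.597 to 5.84 times.

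By summed tags, MED1 was the factor that differed most between treatments at the 307 peaks. Its median was 183.66 normalised tags in rosiglitazone and 73.39 in DMSO, while over all PPARγ peaks it was 7.65 and 6.99. Summed MED1 tags were 2.42 times as high in rosiglitazone as in DMSO (95% interval 2.35 to 2.49), against 1.63 over all PPARγ peaks. The median log2 ratio was 1.35 in the 307 peaks, with quartiles of 0.54 and 1.93, against 0.00 over all PPARγ peaks, of which most held few MED1 tags. Among peaks with at least 20 MED1 tags over both libraries, the medians were closer, 1.39 in the high-scoring peaks and 0.91 over all PPARγ peaks. The 307 peaks held 8.53% of the MED1 tags of all PPARγ peaks in rosiglitazone and 5.74% in DMSO.

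MED1 was at least 2-fold higher in rosiglitazone in 198 of the 307 peaks (64.5%), where all PPARγ peaks gave 29.8%. It was at least 2-fold lower in 19 peaks (6.19%), where all PPARγ peaks gave 22.5%. The comparison is fairer among peaks with at least 20 MED1 tags over both libraries. Of the 221 such high-scoring peaks, 150 (67.9%) had at least 2-fold more MED1 in rosiglitazone and 10 (4.52%) at least 2-fold less, where PPARγ peaks with that many MED1 tags gave 45.1% and 8.14%. By an exact binomial test of the MED1 tags of the 2 libraries, added after the values had been seen, 132 of the 307 peaks were higher and 2 lower at a Benjamini-Hochberg adjusted p of 0.05, where all PPARγ peaks gave 3.18% and 0.304%. That test compares these libraries, not the treatments. The difference between the shares was not tested, since peaks of the same libraries are not replicates.

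The highest MED1 ratios among peaks with at least 20 MED1 tags were at chr16:24057485-24057671, chr2:92215703-92215889 and chr8:10960278-10960464. The first held 145.39 MED1 tags in rosiglitazone and 6.99 in DMSO, a ratio of 20.8 (5.02 to 184), with PPARγ at 164.61 and 123.11. The chromosome 2 site held 137.74 MED1 tags in rosiglitazone and 10.48 in DMSO, and the chromosome 8 site 244.87 and 24.46. All 3 were low in DMSO rather than very high in rosiglitazone, with 2, 3 and 7 recovered MED1 tags in DMSO, and the intervals are accordingly wide.

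The lowest MED1 ratios ran from 0.199 to 0.219. At chr1:51555557-51555743 MED1 was 38.26 in rosiglitazone and 174.74 in DMSO, a ratio of 0.219 (0.068 to 0.546), while PPARγ was 144.66 and 144.21. CBP at this site was 218.31 in rosiglitazone and 117.14 in DMSO, a ratio of 1.86 (1.19 to 2.90). At chr2:124070328-124070514 MED1 was 15.3 in rosiglitazone and 76.88 in DMSO, with CBP at 224.37 and 99.46. The third, chr9:40126433-40126619, held 15.3 MED1 tags in rosiglitazone and 73.39 in DMSO, with PPARγ at 195.37 and 82.66. In all 3 the interval of the MED1 ratio lay below 1 and that of the CBP ratio above 1. The 3 were picked for their low MED1 ratios, which rest on 5, 2 and 2 MED1 tags in rosiglitazone, in the order given. CBP at the chromosome 9 site rests on 6 tags in rosiglitazone and 3 in DMSO. Across the high-scoring peaks the MED1 interval lay below 1 in 2.61% and the CBP interval above 1 in 26.4%. All PPARγ peaks gave 1.64% and 6.40%. Whether CBP at these sites differs from the set was not tested.

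CBP differed less between treatments. Its median was 60.64 normalised tags in rosiglitazone and 39.78 in DMSO, while over all PPARγ peaks it was 6.06 and 4.42. Summed CBP tags were 1.56 times as high in rosiglitazone as in DMSO (95% interval 1.50 to 1.62), against 1.38 over all PPARγ peaks. CBP was at least 2-fold higher in 98 of the 307 peaks (31.9%), where all PPARγ peaks gave 23.6%, and at least 2-fold lower in 15 (4.89%), where all PPARγ peaks gave 25.1%. Among the 209 with at least 20 CBP tags, 57 (27.3%) had at least 2-fold more CBP in rosiglitazone and 5 (2.39%) at least 2-fold less, where PPARγ peaks with that many CBP tags gave 22.7% and 5.70%. The share of higher peaks was thus near the background. The binomial test of the 2 CBP libraries called 10 of the 307 peaks higher and 0 lower, where all PPARγ peaks gave 0.418% and 0.00327%. For PPARγ the same test called 243 higher and 4 lower, where all PPARγ peaks gave 20.1% and 1.57%, and for C/EBPα it called 14 and 14, where all PPARγ peaks gave 0.726% and 0.546%.

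The highest CBP ratios were 6.47 (3.37 to 13.1) at chr4:137043479-137043665, where CBP was 200.11 in rosiglitazone and 30.94 in DMSO, and 5.21 (2.31 to 12.6) at chr13:52018016-52018202. At chr2:157297180-157297366 CBP was 157.67 in rosiglitazone and 30.94 in DMSO, and MED1 902.97 and 195.7. MED1 was higher in rosiglitazone at all 3, with ratios of 3.57 to 6.57, while PPARγ at the chromosome 13 site was 106.42 in rosiglitazone and 102.88 in DMSO. The lowest CBP ratio, 0.144 (0.003 to 0.908), was at chr19:4557879-4558065, with 1 CBP tag recovered in rosiglitazone and 19 in DMSO. At chr18:50142190-50142376 CBP was 12.13 in rosiglitazone and 68.52 in DMSO, a ratio of 0.177 (0.021 to 0.696), with PPARγ level at 127.2 and 125.75. The next, chr1:34363579-34363765, had a CBP ratio of 0.329 (0.064 to 1.08), so its interval spanned equality.

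C/EBPα differed in both directions between treatments, with a median near equality. Its median was 39.48 normalised tags in rosiglitazone and 37.54 in DMSO, while over all PPARγ peaks it was 5.09 and 4.42. The median log2 ratio was 0.06, with quartiles of -0.52 and 0.51. C/EBPα was at least 2-fold higher in 37 of the 307 (12.1%) and lower by that factor in 30 (9.77%), where all PPARγ peaks gave 24.5% and 18.7%. Among the 230 with at least 20 C/EBPα tags, 27 (11.7%) were higher and 16 (6.96%) lower, where PPARγ peaks with that many C/EBPα tags gave 15.4% and 8.07%.

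Summed C/EBPα tags were 0.914 times as high in rosiglitazone as in DMSO (95% interval 0.893 to 0.936), against 0.984 over all PPARγ peaks. A single site, chr10:117183471-117183657, held 11.6% of the DMSO C/EBPα tags of the 307 peaks. Its C/EBPα value was 1384.47 in rosiglitazone and 2914.66 in DMSO, a ratio of 0.475 (0.438 to 0.515). Without it the summed ratio was 0.972 (0.948 to 0.996), and without the 12 peaks in high background it was 0.995 (0.970 to 1.02). The lower C/EBPα sum therefore rested on peaks in high background, above all on that chromosome 10 site.

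At some sites C/EBPα differed several-fold. C/EBPα was 177.04 in rosiglitazone and 41.95 in DMSO at chr5:136218868-136219054, a ratio of 4.22 (2.60 to 7.22), where PPARγ was 325.9 and 92.33. At chr5:101289821-101290007 C/EBPα was 196.14 in rosiglitazone and 44.16 in DMSO, with PPARγ at 193.71 and 36.93. Both sites overlapped a C/EBPα peak, and PPARγ and C/EBPα were both several times higher in rosiglitazone there. A pair of sites on chromosome 17 showed how C/EBPα could differ over a short distance. At chr17:56250581-56250767 C/EBPα was 112.08 in rosiglitazone and 24.29 in DMSO, a ratio of 4.61 (2.46 to 9.58). At chr17:56249238-56249424, 1.343 kb away, it was 11.46 in rosiglitazone and 35.33 in DMSO, a ratio of 0.324 (0.126 to 0.780). MED1 was about 3 times higher in rosiglitazone at both, with ratios of 2.98 and 3.54. The lowest C/EBPα ratio, 0.247 (0.078 to 0.685), was at chr8:121918568-121918754, where C/EBPα was 7.64 in rosiglitazone and 30.91 in DMSO. At chr11:85590387-85590573 it was 10.19 in rosiglitazone and 39.75 in DMSO, a ratio of 0.256 (0.096 to 0.620), while PPARγ was 225.3 and 137.18.

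The bands of score showed how far these values followed peak height. Summed MED1 ratios were 1.56, 1.56, 1.51 and 1.84 in PPARγ peaks with scores under 10, 10 to 20, 20 to 50 and 50 to 100, against 2.50 at 100 to 150 and 2.35 at 150 and over. Summed PPARγ ratios over the same bands were 1.36, 1.41, 1.55, 1.80, 1.97 and 1.93, and CBP ratios were 1.23, 1.32, 1.45, 1.56, 1.58 and 1.55. MED1 stayed near 1.5 up to a score of 50 and was higher above it, whereas PPARγ was higher in each band up to a score of 150 and CBP was between 1.55 and 1.58 in the bands from a score of 50. C/EBPα was 0.936, 0.952, 1.04, 1.09 and 1.11 up to a score of 150 and 0.784 above it. The chromosome 10 site lies in that last band. The median log2 C/EBPα ratio, per peak, was also lower there, at -0.15 against 0.17 at scores of 100 to 150.

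**Figure D3:**
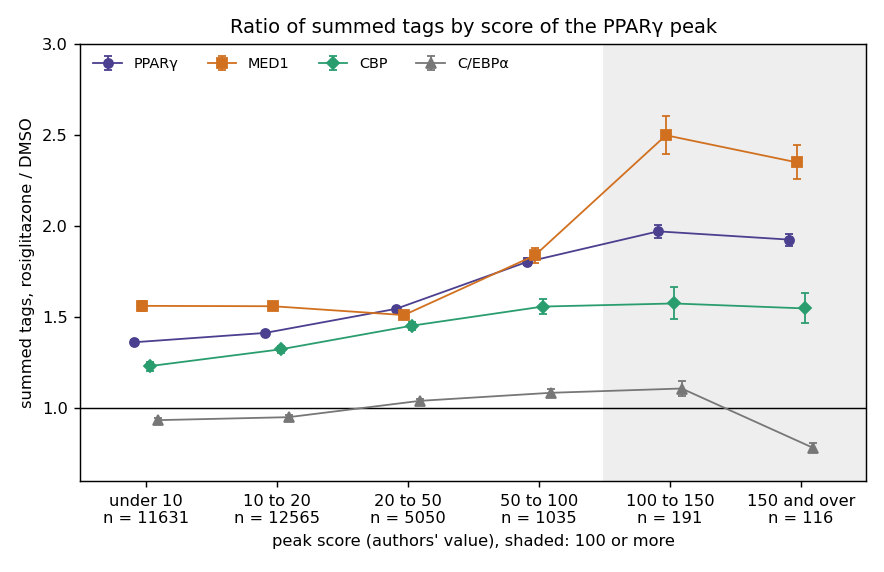
Ratio of summed tags in rosiglitazone to DMSO for each factor by band of PPARγ peak score, with exact 95% intervals that cover counting error only. The MED1 ratio is 2.50 and 2.35 in the 2 bands of 100 and over and between 1.51 and 1.84 in the bands below, while CBP lies between 1.23 and 1.58 throughout.

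PPARγ itself varied widely in its ratio among the 307 peaks, from 0.623 to 11.4. The 5 highest ratios belonged to peaks with scores of 105.6 to 152.6. At chr2:11443525-11443711 PPARγ was 211.17 in rosiglitazone and 18.47 in DMSO, a ratio of 11.4 (7.32 to 18.8). At chr5:37115635-37115821 it was 270.19 in rosiglitazone and 29.9 in DMSO, and at chr5:123553700-123553886 it was 245.25 and 27.26. The other two were chr16:30981548-30981734 at 7.60 (5.12 to 11.7) and chr9:21939611-21939797 at 7.53 (5.07 to 11.6). MED1 was 2.56 to 5.22 times as high in rosiglitazone at these 5, a smaller ratio than that of PPARγ in each. The 5 were picked for their PPARγ ratio, so nothing is read from that order. All 5 overlapped a C/EBPα peak, as did the 5 with the lowest PPARγ ratios. Such a peak overlapped 80.5% of the 307 and 36.1% of all PPARγ peaks.

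At the chromosome 2 site C/EBPα was 147.74 in rosiglitazone and 103.78 in DMSO, and MED1 was 367.31 and 143.28. At chr5:123553700-123553886 C/EBPα was 225.44 in rosiglitazone and 194.31 in DMSO. MED1 in DMSO was between 45.43 and 143.28 at the 5 sites, where the median of all PPARγ peaks was 6.99, and PPARγ in DMSO was between 18.47 and 29.9. C/EBPα in DMSO ranged widely, from 4.42 at the chromosome 9 site to 194.31.

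The 5 lowest PPARγ ratios, 0.623 to 0.740, belonged to peaks with scores of 102.1 to 123.1. At chr2:61370476-61370662 PPARγ was 96.44 in rosiglitazone and 154.76 in DMSO, a ratio of 0.623 (0.489 to 0.792), and C/EBPα was 118.45 and 59.62. At chr6:52361062-52361248 PPARγ was 98.93 in rosiglitazone and 133.66 in DMSO, while CBP was 97.03 and 39.78 and C/EBPα 62.41 and 26.5. The others were chr7:3331563-3331749, chr9:60870150-60870336 and chr4:98175433-98175619. The interval of the CBP ratio lay above 1 in 4 of the 5 and that of the C/EBPα ratio in 3 of the 5. The CBP interval at chr7:3331563-3331749, 1.12 to 72.0, rests on 5 CBP tags in rosiglitazone and 2 in DMSO. Across the whole set of high-scoring peaks the interval lay above 1 in 26.4% for CBP and 13.0% for C/EBPα. All PPARγ peaks gave 6.40% and 3.46%. Whether the 5 peaks differ from the set in CBP or C/EBPα was not tested. MED1 ranged from 0 to 160.7 normalised tags in rosiglitazone and from 3.49 to 122.31 in DMSO at these sites, the highest being the chromosome 9 site in both, and the interval of its ratio spanned equality in each.

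To compare the other factors along the PPARγ ratio, the 307 peaks were split by that ratio into 3 groups, 102 with the lowest, 102 in the middle and 103 with the highest. The summed PPARγ ratios of 1.20, 1.98 and 3.50 follow from the split. Summed MED1 ratios were 1.70 (95% interval 1.60 to 1.80) in the lowest group, 2.53 (2.40 to 2.66) in the middle and 2.78 (2.66 to 2.90) in the highest. CBP ratios were 1.56, 1.43 and 1.68 in the same order. C/EBPα ratios were 0.986, 0.674 and 1.16. The middle group held the chromosome 10 site rich in C/EBPα, but its median log2 C/EBPα ratio was low as well. That median was -0.41, against 0.15 in the lowest group and 0.30 in the highest.

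Levels differed between these groups as well. Median MED1 was 53.57 in rosiglitazone and 45.43 in DMSO in the group with the lowest PPARγ ratios, 187.5 and 68.1 in the middle group, and 313.75 and 104.84 in the group with the highest. Median PPARγ in DMSO ran the other way, at 125.31, 85.74 and 58.92. DMSO PPARγ entered the choice of the peaks and is the denominator of the ratio that made the groups, while the MED1 values come from other libraries.

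MED1 was at least 2-fold higher in rosiglitazone in 45 of 102, 68 of 102 and 85 of 103 peaks of these groups, from the lowest to the highest PPARγ ratio, and at least 2-fold lower in 14, 5 and 0. A C/EBPα peak overlapped 77.5%, 74.5% and 89.3% of them. The share with another PPARγ peak within 10 kb was 55.9%, 70.6% and 83.5%, so PPARγ neighbours were more common in the groups with higher PPARγ ratios. No test of these shares was made.

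**Figure D4:**
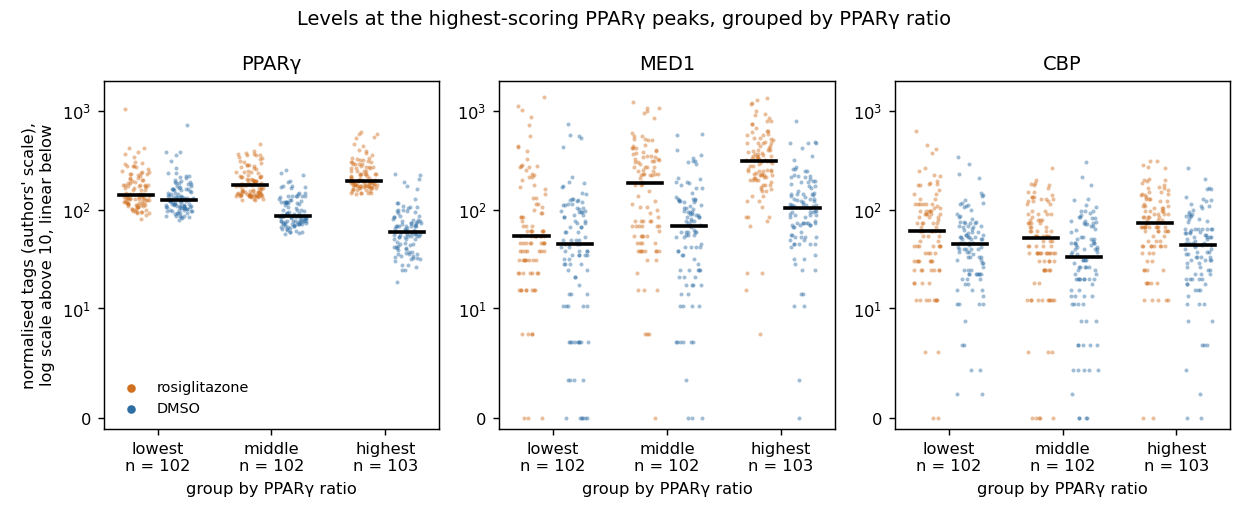
Normalised tags (log axis above 10, linear below) of PPARγ, MED1 and CBP at the 307 high-scoring PPARγ peaks, in groups by PPARγ ratio of rosiglitazone to DMSO, with rosiglitazone left of DMSO. Each point is a peak and each bar a median. Median MED1 in rosiglitazone is 53.57, 187.5 and 313.75 from the lowest group to the highest.

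Peak by peak, Spearman's rho between the log2 ratios of PPARγ and MED1 was 0.40, and Pearson's r 0.43, over the 221 peaks with at least 20 MED1 tags. For PPARγ and CBP rho was 0.05 over 209 peaks, and for MED1 and CBP it was 0.04 over 172. The levels of PPARγ and MED1 had a rho of 0.46 in rosiglitazone and -0.06 in DMSO over all 307 peaks. MED1 and CBP levels had a rho of 0.50 in rosiglitazone and 0.70 in DMSO. These are descriptions across peaks that share the same libraries, and the points are not independent. The rho values with PPARγ levels are limited by the choice of the peaks on PPARγ tags, so they are not set against that of MED1 and CBP.

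A C/EBPα peak overlapped 247 of the 307 peaks, or 80.5% (95% interval 75.6 to 84.7), against 36.1% of all PPARγ peaks. The share was 73.5% at scores of 50 to 100, 81.2% at 100 to 150 and 79.3% at 150 and over, so the upper and lower parts of the set were close. The overlapping C/EBPα peaks were themselves high. Their median C/EBPα score was 63, against 15.3 over all C/EBPα peaks, and 155 of the 247 (62.8%) were in the top 10% of C/EBPα peaks, against 19.9% of all shared PPARγ peaks. Peak centres lay a median of 29 bp apart, against 41 bp over all shared PPARγ peaks, and 96 pairs (38.9%) lay within 20 bp, against 27.4%.

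The 60 peaks without an overlapping C/EBPα peak were not all far from one. The nearest C/EBPα peak was centred at a median distance of 1163 bp, with a range of 219 to 22301 bp, and 28 had one within 1 kb. Their C/EBPα medians were 7.005 normalised tags in rosiglitazone and 8.83 in DMSO, against 54.77 and 48.58 in the 247 shared peaks. Summed PPARγ ratios were 1.71 in the 60 and 2.02 in the 247, MED1 ratios 2.31 and 2.45, and CBP ratios 1.63 and 1.54. MED1 was thus higher in rosiglitazone in both kinds of site. High background held 6 of the 60 and 6 of the 247. The 60 also include the peak with the highest score, whose PPARγ ratio was 1.45. Whether the ratios of the 60 and the 247 differ apart from these peaks was not tested.

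Most of the 307 peaks carried coactivator tags. Only 9 (2.93%) held at most 5 tags of MED1 and at most 5 of CBP over both libraries, against 46.0% of all PPARγ peaks and 7.54% of those with scores of 50 to 100. This limit was chosen after the values had been seen. The highest of the 9 was chr9:116865440-116865626, ranked 14 with a score of 302.1. PPARγ there was 369.13 in rosiglitazone and 233.91 in DMSO, and C/EBPα was 39.48 and 35.33, near the medians of the 307 peaks. MED1 was 7.65 in rosiglitazone and 6.99 in DMSO, which are 1 and 2 tags, and CBP was 12.13 and 6.63, which are 2 and 3 tags. MED1 there was thus at about the median of all PPARγ peaks, 7.65 in rosiglitazone and 6.99 in DMSO, while PPARγ was far above it.

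PPARγ was higher in rosiglitazone at all 9 of these coactivator-poor sites, with ratios of 1.41 to 2.57. It was higher in 92.8% of the high-scoring peaks and in 70.5% of all PPARγ peaks, so these sites are not set apart by this count. At chr9:74759147-74759333 PPARγ was 192.05 in rosiglitazone and 74.74 in DMSO, a ratio of 2.57, and at chr12:88441439-88441625 it was 167.11 and 84.42. Both sites had 0 CBP tags in either library, and a C/EBPα peak overlapped both. A C/EBPα peak overlapped 7 of the 9, where the high-scoring peaks gave 80.5% and all PPARγ peaks 36.1%.

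The peaks were grouped into loci where neighbours among the 307 lay within 50 kb. There were 269 loci, of which 243 held 1 peak and 26 held at least 2, with 64 peaks in all. Of these, 6 loci held at least 3 peaks. By chromosome, the peaks made up between 0.288% of PPARγ peaks on chromosome 13 and 1.61% on chromosome 10. Of the 21 on chromosome 10, 7 formed a locus wholly in high background, and chr10:117486472-117486658 also lay in high background.

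A locus of 4 peaks spanned chr2:167513304-167527933 and held the peak ranked second. PPARγ was 195.37, 304.28, 167.11 and 604.4 normalised tags in rosiglitazone along the locus, and 72.99, 105.52, 42.21 and 205.77 in DMSO. MED1 was 137.74, 795.84, 726.97 and 1277.94 in rosiglitazone and 27.96, 174.74, 104.84 and 255.11 in DMSO. PPARγ ratios were 2.68 to 3.96 and MED1 ratios 4.55 to 6.93, so both factors were several times higher in rosiglitazone at every peak of the locus. On the same chromosome, 3 further peaks at chr2:167581093-167624924 had PPARγ ratios of 2.06 to 3.57 and MED1 ratios of 2.19 to 7.44.

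At chr7:35907768-35957928, also with 4 peaks, PPARγ was 159.62, 404.88, 359.98 and 196.2 in rosiglitazone and 60.67, 107.28, 195.21 and 32.54 in DMSO. PPARγ ratios thus ran from 1.84 to 6.03 over 50.2 kb, while MED1 ratios stayed between 2.48 and 3.61. The 3 peaks at chr17:56249238-56250767 showed the same, with PPARγ ratios of 2.22 to 4.94 and MED1 ratios of 2.98 to 3.54. The 3 peaks at chr19:4511559-4594352 did not, with PPARγ ratios of 1.42 to 3.09 and MED1 ratios of 1.29 to 10.9, the highest resting on 5 MED1 tags in rosiglitazone and 1 in DMSO.

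**Figure D5:**
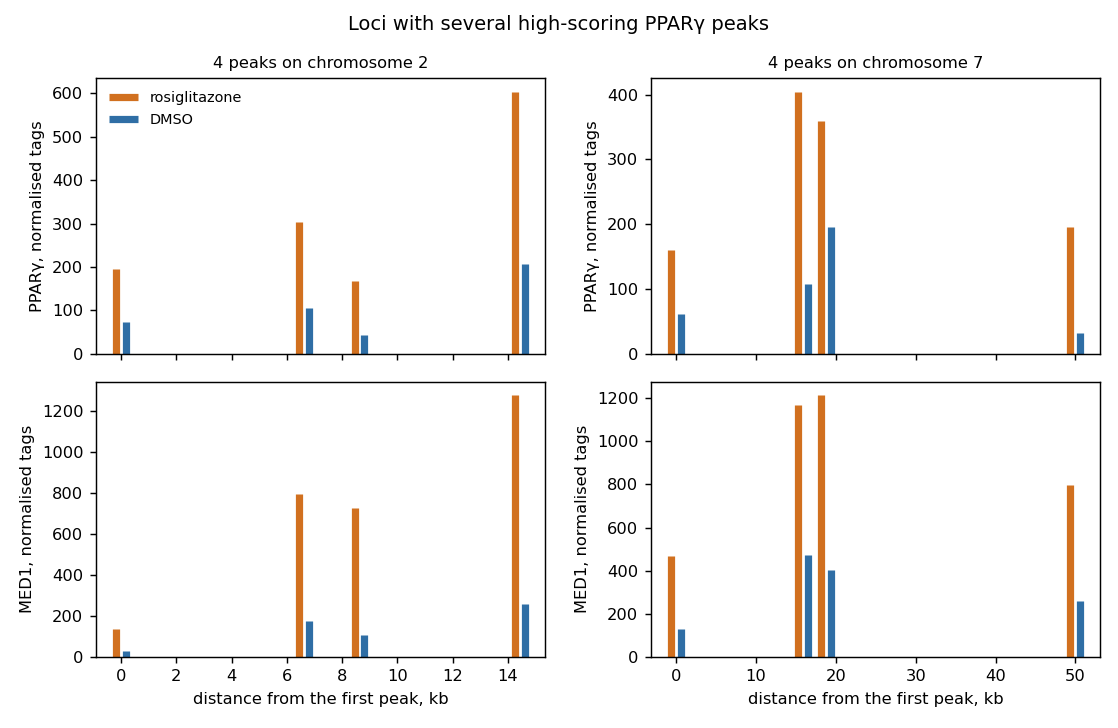
Normalised tags of PPARγ (top) and MED1 (bottom) at the peaks of the 4-peak loci on chromosome 2 and chromosome 7, by distance from the first peak in kb, with rosiglitazone left of DMSO. PPARγ and MED1 are higher in rosiglitazone at all peaks of both loci, with MED1 ratios of 4.55 to 6.93 on chromosome 2 and 2.48 to 3.61 on chromosome 7.

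The largest locus, chr10:117147011-117183657, held 7 peaks and lay wholly in high background. Its PPARγ ratios ran from 1.01 to 2.65 and its MED1 ratios from 0.446 to 2.43. At chr10:117154738-117154924, ranked 7, PPARγ was 385.75 in rosiglitazone and 381.63 in DMSO. Only 2 of the 7 overlapped a C/EBPα peak. The part of the background in these values was not tested.

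Peaks of a locus were closer to each other in their MED1 ratios than pairs of the whole set, by the median difference, and those of C/EBPα were farther apart. CBP ratios were closer too, but less so outside high background. The 61 pairs of high-scoring peaks within 50 kb differed by a median of 0.62 in the log2 MED1 ratio, against 1.05 over all 46971 pairs of the 307. Outside high background the value was 0.50 over 38 pairs. For CBP the values were 0.59 within 50 kb and 0.79 over all pairs, for PPARγ 0.65 and 0.73, and for C/EBPα 0.97 and 0.79. Outside high background they were 0.70 and 0.79 for CBP, 0.64 and 0.73 for PPARγ, and 1.18 and 0.79 for C/EBPα. Pairs share peaks and are not independent, and no test was made. No minimum of tags was set for these pairs. Of the 307 peaks, 221 held at least 20 tags of MED1, 209 of CBP and 230 of C/EBPα, and ratios of the others are coarse. The part of counting error in these differences was not tested.

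Another PPARγ peak of any score lay within 10 kb of 215 of the 307 peaks, or 70.0% (95% interval 64.6 to 75.1), against 54.8% of all PPARγ peaks. The share was 46.6% at scores under 10, 57.3% at 10 to 20, 63.9% at 20 to 50 and 66.7% at 50 to 100. The set was thus close to the band just below it. Within 5 kb there was no excess, with 35.5% of the 307 and 38.0% of all PPARγ peaks having a neighbour. Within 25 kb the shares were 86.3% and 74.8%. The 321 lower-scoring peaks within 10 kb of a high-scoring one had a summed PPARγ ratio of 1.84 (1.79 to 1.89), against 1.48 (1.48 to 1.49) in the 29960 farther away. At like scores of 20 to 50, the ratio was 1.85 (1.77 to 1.93) in the 125 near a high-scoring peak and 1.54 (1.53 to 1.55) in the 4925 farther away. MED1 ratios in those score-matched peaks were 1.75 (1.62 to 1.89) near and 1.50 (1.48 to 1.53) far. A C/EBPα peak overlapped 44.9% of the 321 near peaks and 35.5% of the 29960 far ones, while at scores of 20 to 50 it overlapped 45.6% of the near peaks and 57.9% of the far ones. PPARγ and MED1 ratios were thus higher near the high-scoring peaks at like scores, and the direction of the C/EBPα overlap depended on the score. These differences were not tested across cultures.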

How the data were processed

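ChIP-seq of PPARγ, MED1, CBP and C/EBPα in day 7 3T3-L1 adipocytes was used, in 8 columns of 16 samples and 12 groups. Input chromatin and RNA polymerase II are not used here. Bowtie, HOMER, FastQC, edgeR and build mm9 are named in the submitters' processing notes, with no versions. The authors deposited a normalised tag signal per peak. The peak score and the focus ratio, a fraction, are also values deposited by the authors. For MED1 with rosiglitazone, the header says BRL, a code of that drug, and only 1 sample matches. No replicate is named in the PPARγ headers, and each column may hold 1 labelled sample or both.

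In each column the authors' signal moved in equal steps, 100% of values lying within 0.02 steps of a whole number, so tags were recovered. With 1 column per treatment no count model could be fitted; an exact binomial test of the 2 libraries with Benjamini-Hochberg adjustment at 0.05, which compares libraries and not conditions, was added after the values had been seen. Log2 ratios used a pseudocount of 1 normalised tag, less than 1 recovered tag of MED1, CBP or C/EBPα. At peaks with few tags of these factors, a difference of 1 recovered tag could therefore pass 2-fold. Peaks overlapped when at least 1 bp was shared. High background means 1 Mb stretches holding 5 or more peaks of either list that overlap no peak of the other, whose median tags of the other factor were at least 3 times the median over all such peaks.

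The peaks, lists and comparisons were chosen with earlier results of these data known. Peaks named are the 15 highest scores, the 5 highest and 5 lowest PPARγ ratios, the 3 highest and 3 lowest ratios of the other factors among peaks with at least 20 tags, the peaks at the edge, and those of loci; others are said to be chosen after their values were seen. The peaks at chr10:117183471-117183657 and the coactivator-poor sites were chosen in that way. The scripts were tested on simulated data. Python 3.11.15, numpy 2.4.6, scipy 1.17.1, pandas 2.3.3 and matplotlib 3.10.9 were used. The gene lists, positions relative to genes and a DR1 motif search that had been planned were not run.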

Additional observations from a re-analysis of the deposited data

How the results depend on the processing

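The excess of PPARγ neighbours over all PPARγ peaks was not seen within 5 kb, and the balance of C/EBPα calls turned at scores of 150 or more. Of 91 alternative values, 69 stayed close to the reported value and 22 moved. Some of the 69 could not move. Centring applied no shift to MED1, CBP and C/EBPα, whose median log2 ratio over all PPARγ peaks was 0. All 307 peaks also held at least 20 PPARγ tags. The binomial calls among the 91 are another measure than the 2-fold shares they are set beside. Centring on the median of all PPARγ peaks, a log2 shift of 0.50, left 24.8% of the 307 peaks at least 2-fold higher in PPARγ and 1.30% lower, in place of 51.8% and 0%. The exact binomial test of the libraries, added after the values had been seen, called 79.2% higher and 1.30% lower for PPARγ, 43.0% and 0.651% for MED1 in place of 64.5% and 6.19%, 3.26% and 0% for CBP in place of 31.9% and 4.89%, and 4.56% each way for C/EBPα in place of 12.1% and 9.77%. With scores of 150 or more, summed ratios were 2.35 for MED1 and 0.784 for C/EBPα, CBP was at least 2-fold lower in 2.59% and C/EBPα higher in 6.03% and lower in 11.2%. With at least 20 tags CBP was lower in 2.39%. Without high background the summed ratios were 1.97 for PPARγ, 2.49 for MED1 and 0.995 for C/EBPα, and without the peak richest in C/EBPα that ratio was 0.972. Overlap was 74.3% with C/EBPα peaks above their median score. A PPARγ neighbour lay within 5 kb of 35.5%, against 38.0% of all PPARγ peaks, and within 25 kb of 86.3%, against 74.8%. The cause of these moves was not tested. The alternatives on a DR1 motif and on 5 kb of a gene start were not run. No paired analysis was possible because the columns carry no replicate number and each factor has 1 column per treatment. MED1 and CBP, with 1.31 M and 1.65 M (mega) tags in rosiglitazone, limit what single peaks can show.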

Other observations

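By PPARγ tags alone, 15 further peaks held at least as many tags as the lowest of the 307, and 14 of them had a score of 95 or more. The remaining one, chr5:114323239-114323425, had a score of 18.4 and was singled out after its values were seen. It held 12 PPARγ tags in rosiglitazone and 266 in DMSO, or 9.98 and 233.91 normalised tags. Its score was 0.155 of its pooled, scaled PPARγ tags. Over both libraries it held 4 MED1 tags, 3 CBP tags and 0 C/EBPα tags. PPARγ at this position was thus high in the DMSO column alone, without the other factors.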
